A study of Saccharomyces cerevisiae with 23 samples.

Results

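Reductive iron uptake in budding yeast (Saccharomyces cerevisiae) is represented here by 10 genes, taken by their standard names from a list by role: the ferric reductase genes FRE2, FRE3, FRE5 and FRE6, the multicopper ferroxidase genes FET3 and FET5, their iron permease partners FTR1 and FTH1, and CCC2 and ATX1, which deliver copper to the ferroxidases. They are 10 of the 6256 genes with a probe on the array. All 10 passed the signal filter described under processing, as did 5606 genes in all. Each gene had 1 probe, and whether related family members share signal on a probe was not tested.

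The RNA came from haploid BY4741a yeast carrying pdr5Δ, a deletion of the gene of a drug efflux pump, so all groups, the untreated one included, lack that pump. During the treatment every culture had synthetic complete medium with 2% glucose, 0.25 mM EDTA (a metal chelator) and 0.1% DMSO as vehicle. The 6 groups were a statin at 5 µg/mL (the labels do not say which; statins inhibit HMG-CoA reductase) with 1 mM CuSO4, the statin with 2 mM ZnSO4, the statin alone, 1 mM CuSO4, 2 mM ZnSO4, and no addition. Statin with ZnSO4 had 2 biological samples, numbered 2 and 3 (number 1 was not analysed here), and every other group had 3. Cultures with statin had also been pregrown in statin from an OD600 of 0.09, against 0.01 without it. Their nominal OD600 at harvest was 0.4 against 0.8. Statin and culture density therefore cannot be told apart in any comparison of samples with and without statin. Metal and dose also differed together, so they cannot be told apart in any comparison of CuSO4 with ZnSO4.

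Yeast takes up ferric iron in steps. Reductases of the FRE family at the cell surface reduce Fe(III) to Fe(II), which the complex of the ferroxidase Fet3 and the permease Ftr1 oxidises again and carries into the cell. Fet3 needs copper to work: the chaperone Atx1 hands copper to the pump Ccc2, which moves it into the Golgi, where Fet3 is loaded. Fet5 and Fth1 form a like complex on the vacuole that moves iron out of the store, and Fre6 is a reductase of the vacuolar membrane. When iron is low, the transcription factor Aft1 turns on most of these genes, together with those for siderophore uptake.

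Each array held 1 sample, labelled with Cy3, and a Cy5-labelled reference mixed from the RNA of all conditions. Values are log2 ratios of the sample over that pool, so a value describes 1 gene across samples and not how much of its transcript there was relative to another gene. After the sign ±, the standard error (SE) of the limma fit is given unless SD is written. Calls were made in limma, at an adjusted p (Benjamini-Hochberg, over all 5606 genes) under 0.05. Comparisons that use the same control samples are not independent of each other.

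The 17 biological samples were measured on 23 arrays. Arrays with the same scan date in their file headers are called a slide here, and each replicate number had its own. Whether such arrays shared a physical slide was not checked. Arrays of the third slide had 77.1 to 89.9% of spots well above background, and those of the other slides 95.7 to 98.8%. Between samples, correlations over genes went down to r = -0.564; since the dyes are named in the labels and each condition is part of the reference, the direction of the ratios was kept. Statin with CuSO4 replicate 2 stood apart from its group, with r = 0.273 and 0.629 to replicates 1 and 3, which had r = 0.763 with each other. PDR5 was well above background in both spots on 0 of 23 arrays. Of the genes deleted or disrupted in the BY4741 background, HIS3 was so on 0 arrays, LEU2 on 2, URA3 on 6 and MET17 on 15. Their signals were at percentile 10.8 of the probe signals or lower. The a-cell genes MFA1, MFA2, STE2, STE6 and BAR1 were well above background on 21 to 23 arrays. Of the alpha-cell genes, MF(ALPHA)1 and MF(ALPHA)2 were so on 15 and 14 arrays, at percentile 18.5 of the probe signals or lower, and STE3 on 22, at percentiles 18.7 to 29.7, within the range of MFA1 (15.5 to 33.5).

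**Figure D1:**
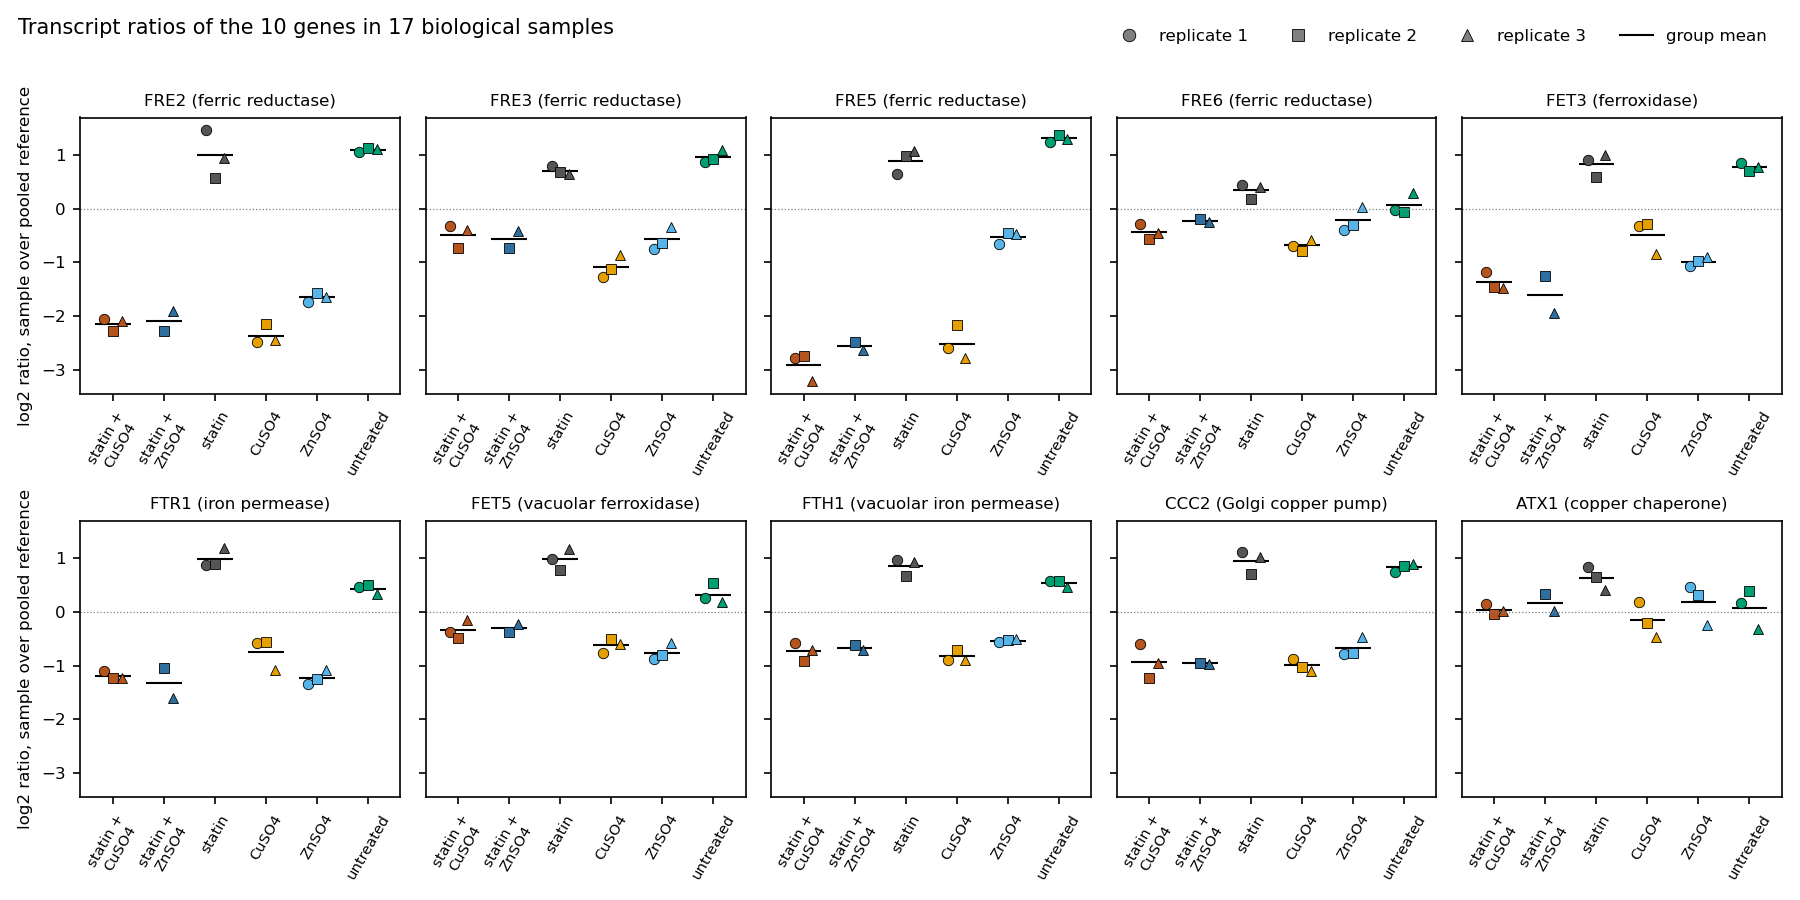
Log2 ratio of sample over pooled reference (vertical axis) for the 10 genes in the 6 groups; symbols are the biological replicates and bars the group means. For every gene but FRE6 and ATX1, all samples with a metal lie below all samples without one. How many of all genes are so split was not counted. In single pairs of groups, being apart in either direction was common. Of all 5606 genes, 2777 were apart between CuSO4 and untreated and 2035 between ZnSO4 and untreated. Between statin and statin with CuSO4 1614 were apart, and between statin and statin with ZnSO4 2774. FRE5 in ZnSO4 samples, at -0.65 to -0.46, lies apart from its values of -3.22 to -2.17 in the other metal groups.

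Of the 4 ferric reductase genes, FRE5 and FRE2 spanned more between group means than any other of the 10 genes (4.22 and 3.46 on the log2 scale), FRE3 spanned 2.05 and FRE6 1.03. FRE2, a plasma membrane reductase gene, stood at -2.06, -2.27 and -2.10 in statin with CuSO4 (replicates 1 to 3) and at -2.29 and -1.91 in statin with ZnSO4 (replicates 2 and 3), against 1.46, 0.58 and 0.94 in statin. In CuSO4 it stood at -2.48, -2.15 and -2.46 and in ZnSO4 at -1.73, -1.58 and -1.65, against 1.05, 1.12 and 1.11 in untreated samples. Every sample with a metal was low and every sample without one was high. The 3 ZnSO4 samples were above all CuSO4 samples and above both samples of statin with ZnSO4.

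FRE3, whose product reduces iron bound to siderophores, stood at -0.33, -0.74 and -0.41 in statin with CuSO4 and at -0.73 and -0.41 in statin with ZnSO4, against 0.79, 0.68 and 0.65 in statin. It stood at -1.28, -1.13 and -0.87 in CuSO4 and at -0.75, -0.63 and -0.35 in ZnSO4, against 0.86, 0.92 and 1.09 in untreated samples. The CuSO4 samples were the lowest and did not overlap with those of statin with CuSO4 or ZnSO4. The 2 groups with ZnSO4 and the group of statin with CuSO4 overlapped.

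FRE5, a family member known mainly by its similarity to the other reductases, stood at -2.79, -2.74 and -3.22 in statin with CuSO4 and at -2.49 and -2.64 in statin with ZnSO4, against 0.63, 0.97 and 1.06 in statin. It stood at -2.60, -2.17 and -2.78 in CuSO4 and at -0.65, -0.46 and -0.48 in ZnSO4, against 1.24, 1.38 and 1.30 in untreated samples. ZnSO4 samples lay between the others, far from both. FRE5 was dim: both spots were well above background on 4 of 5 arrays of statin with CuSO4, 2 of 4 of statin with ZnSO4 and 3 of 4 of CuSO4, and the other arrays were on the third slide. On those the level is only a bound, which covers replicate 3 of each of these groups. FRE5 passed the signal filter through its other groups, where it was higher.

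FRE6 varied least among the reductases, between -0.56 and -0.29 in statin with CuSO4 and at -0.19 and -0.26 in statin with ZnSO4, against 0.19 to 0.44 in statin. It lay between -0.78 and -0.58 in CuSO4 and between -0.40 and 0.04 in ZnSO4, against -0.06 to 0.29 in untreated samples. The ZnSO4 samples overlapped with the untreated ones.

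Among the ferroxidases and permeases, FET3 stood at -1.18, -1.47 and -1.47 in statin with CuSO4 and at -1.25 and -1.95 in statin with ZnSO4, against 0.90, 0.58 and 1.00 in statin. It stood at -0.32, -0.29 and -0.85 in CuSO4 and at -1.08, -0.99 and -0.91 in ZnSO4, against 0.85, 0.69 and 0.77 in untreated samples. Untreated and statin samples overlapped, and the CuSO4 samples were the highest of those with a metal. CuSO4 replicate 3 was nearer to the ZnSO4 samples than to the other CuSO4 samples.

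FTR1, the gene of the permease that works with Fet3, stood at -1.11, -1.22 and -1.23 in statin with CuSO4 and at -1.04 and -1.61 in statin with ZnSO4, against 0.87, 0.89 and 1.20 in statin. It stood at -0.58, -0.55 and -1.08 in CuSO4 and at -1.34, -1.25 and -1.08 in ZnSO4, against 0.46, 0.50 and 0.33 in untreated samples. All statin samples were above all untreated samples. CuSO4 replicate 3 was again the lowest of its group.

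FET5, the vacuolar ferroxidase gene, stood at -0.37, -0.49 and -0.15 in statin with CuSO4 and at -0.37 and -0.23 in statin with ZnSO4, against 0.98, 0.78 and 1.18 in statin. It stood at -0.76, -0.50 and -0.59 in CuSO4 and at -0.88, -0.80 and -0.58 in ZnSO4, against 0.26, 0.54 and 0.18 in untreated samples. Within each metal, every sample with statin was above every sample without. For its partner FTH1, the vacuolar permease gene, the 5 samples with statin and a metal lay between -0.91 and -0.58 against 0.67 to 0.96 in statin, and the 6 samples with a metal alone between -0.90 and -0.51 against 0.47 to 0.58 in untreated samples.

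For copper delivery, CCC2 ranged from -1.22 to -0.60 in statin with CuSO4 and stood at -0.95 and -0.96 in statin with ZnSO4, against 0.71 to 1.12 in statin. It ranged from -1.09 to -0.87 in CuSO4 and from -0.79 to -0.47 in ZnSO4, against 0.75 to 0.89 in untreated samples. ATX1 samples of every metal group overlapped with the untreated ones. It stood at 0.15, -0.03 and 0.02 in statin with CuSO4 and at 0.33 and 0.02 in statin with ZnSO4, against 0.84, 0.64 and 0.41 in statin. It stood at 0.19, -0.20 and -0.46 in CuSO4 and at 0.47, 0.32 and -0.24 in ZnSO4, against 0.18, 0.39 and -0.32 in untreated samples. In every group except statin with CuSO4, the ATX1 replicate on the third slide was the lowest.

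Ordered by group means, 7 genes were highest in statin and 3 (FRE2, FRE3 and FRE5) in untreated samples. The lowest mean was that of CuSO4 for FRE2, FRE3, FRE6, FTH1, CCC2 and ATX1, of statin with CuSO4 for FRE5, of statin with ZnSO4 for FET3 and FTR1, and of ZnSO4 for FET5. The span from highest to lowest mean was 18.6-fold for FRE5, 11.0-fold for FRE2 and 5.38-fold for FET3, and 1.73-fold for ATX1. The 2 highest means overlapped in their samples for FRE2, FRE6, FET3, CCC2 and ATX1. Of the 4 metal groups, neighbours in this order were apart for FRE2 and FTH1 (statin with ZnSO4 and ZnSO4), FRE3 (CuSO4 and ZnSO4), FTR1 and FET5 (statin with CuSO4 and CuSO4). They were also apart for FRE5 (CuSO4 and ZnSO4; statin with CuSO4 and statin with ZnSO4), FRE6 (statin with CuSO4 and statin with ZnSO4; statin with CuSO4 and CuSO4) and FET3 (CuSO4 and ZnSO4; statin with CuSO4 and ZnSO4). The other neighbouring metal groups overlapped, all of CCC2 and ATX1 included. With 2 or 3 samples per group, being apart was common. Of all 5606 genes, 3073 were apart between statin with ZnSO4 and ZnSO4, and 2774 between statin with CuSO4 and CuSO4. Between CuSO4 and ZnSO4 1886 were apart, and between the 2 groups with statin and a metal 1356. Several pairs named here were not called by limma, among them FTH1 (adjusted p = 0.41) and, between the groups with statin and a metal, FRE5 (0.444) and FRE6 (0.601).

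CuSO4 against untreated asked what copper changed in cells without statin. Of the 10 genes 9 fell, all except ATX1, with a median log2 change of -1.31 against -0.04 over all genes tested; 16.6% of all genes were called lower. FRE5 fell 14.2-fold (-3.83 ± 0.16 on the log2 scale, 3 samples per group, adjusted p = 4.04e-10) and FRE2 11.0-fold (-3.46 ± 0.17, adjusted p = 3.57e-09). By the scanner program's own log ratio FRE5 fell 26.0-fold, so its size rests on how the dim signal is handled. FRE3 and FRE6 also fell (-2.05 ± 0.14 and -0.75 ± 0.13).

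The same comparison gave smaller falls for the ferroxidases and permeases. FET3 fell 2.39-fold (-1.26 ± 0.18, adjusted p = 7.66e-05) and FTR1 2.25-fold (-1.17 ± 0.16, adjusted p = 5.27e-05). Within slides 1, 2 and 3 the changes were -1.17, -0.98 and -1.62 for FET3 and -1.03, -1.05 and -1.41 for FTR1. The vacuolar pair FET5 and FTH1 fell as well (-0.94 ± 0.13 and -1.37 ± 0.10). CCC2, the copper pump, fell 3.54-fold (-1.82 ± 0.15, adjusted p = 5.55e-07). ATX1 had a change of -0.24 ± 0.21 (95% interval -0.69 to 0.21, adjusted p = 0.408). All 9 calls held in every alternative in which the gene was tested.

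The same question was put for zinc with ZnSO4 against untreated. Here 8 of 10 genes fell, all but FRE6 and ATX1, against 7.76% of all genes called lower, and the median was -1.52 against 0.00 over all genes. FRE2 fell 6.72-fold (-2.75 ± 0.17, adjusted p = 1.11e-07), FRE5 3.57-fold (-1.84 ± 0.16) and FRE3 2.90-fold (-1.53 ± 0.14). FET3 and FTR1 fell 3.39-fold (-1.76 ± 0.18, adjusted p = 9.4e-06) and 3.15-fold (-1.66 ± 0.16, adjusted p = 5.08e-06). The changes of FET5, FTH1 and CCC2 were -1.08 ± 0.13, -1.07 ± 0.10 and -1.51 ± 0.15.

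FRE6 and ATX1 had log2 changes of -0.28 ± 0.13 (adjusted p = 0.161) and 0.10 ± 0.21 (adjusted p = 0.803) with ZnSO4. Without ZnSO4 replicate 3, FRE6 was called lower (-0.41, adjusted p = 0.0446). All 8 calls held in every alternative in which the gene was tested.

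Set directly against each other, 1 mM CuSO4 and 2 mM ZnSO4 left different levels for 5 of the 10 genes. Of all genes, 15.7% were called in either direction. Metal and dose cannot be told apart here. The 4 reductase genes were lower with CuSO4: FRE5 (-1.99 ± 0.16, adjusted p = 2.38e-06), FRE2 (-0.71 ± 0.17, adjusted p = 0.0116), FRE3 (-0.52 ± 0.14, adjusted p = 0.0223) and FRE6 (-0.46 ± 0.13, adjusted p = 0.0232). FTR1 was higher with CuSO4 (0.49 ± 0.16, adjusted p = 0.0487), and FET3 had a difference of 0.50 ± 0.18 (adjusted p = 0.0699). On slides 1 and 2 FTR1 differed by 0.77 and 0.70, and on slide 3 by 0.00; FET3 differed by 0.76, 0.70 and 0.06.

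Of these 5 calls, that of FRE5 held in every alternative that tested it, at -2.60 by the scanner program's log ratio. With scaling between arrays FRE2 (-0.24, adjusted p = 0.55), FRE3 (-0.31, 0.21) and FRE6 (-0.35, 0.103) were not called and FET3 was (0.65, 0.0123). With only these groups in the fit, FRE3, FRE6 and FTR1 were not called (adjusted p = 0.0528, 0.0552 and 0.0797). Without CuSO4 replicate 1 and without ZnSO4 replicate 2 FRE5 was the only 1 of the 5 to keep its call, without CuSO4 replicate 2 there were 2 calls and without ZnSO4 replicate 3 there were 3. FTH1 was at -0.30 ± 0.10 (adjusted p = 0.0659), and was called with the slide as a block (adjusted p = 0.0462).

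Statin against untreated asked what the statin changed without added metal. FTR1 rose 1.47-fold (0.56 ± 0.16, adjusted p = 0.0126), FET5 1.57-fold (0.65 ± 0.13, adjusted p = 0.00143) and FTH1 1.24-fold (0.31 ± 0.10, adjusted p = 0.0285). That is 3 of 10 genes, against 18.0% of all genes called higher, with a median of 0.20 against -0.01. FET3 had a change of 0.06 ± 0.18 (95% interval -0.33 to 0.44, adjusted p = 0.831) and FRE2 of -0.10 ± 0.17 (adjusted p = 0.676).

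Only the call of FET5 held in every alternative. Its rises within the slides were 0.72, 0.24 and 1.00, and those of FTR1 0.41, 0.39 and 0.87. FTR1 was not called without statin replicate 3 (0.45, adjusted p = 0.0652). FTH1 was not called without statin replicate 1 (adjusted p = 0.104) or 3 (0.0963), or without untreated replicate 1 (0.0558) or 3 (0.0949), nor with scaling between arrays (0.12, adjusted p = 0.415). ATX1 was at 0.55 ± 0.21 (adjusted p = 0.054) and FRE5 at -0.42 ± 0.16 (adjusted p = 0.0535). With the slide as a block these 2 were called as well (adjusted p = 0.00382 and 0.0259), which makes 5. With scaling between arrays FRE5 (-0.71, adjusted p = 0.00367) and FRE3 (-0.46, 0.0273) were called lower.

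**Figure D2:**
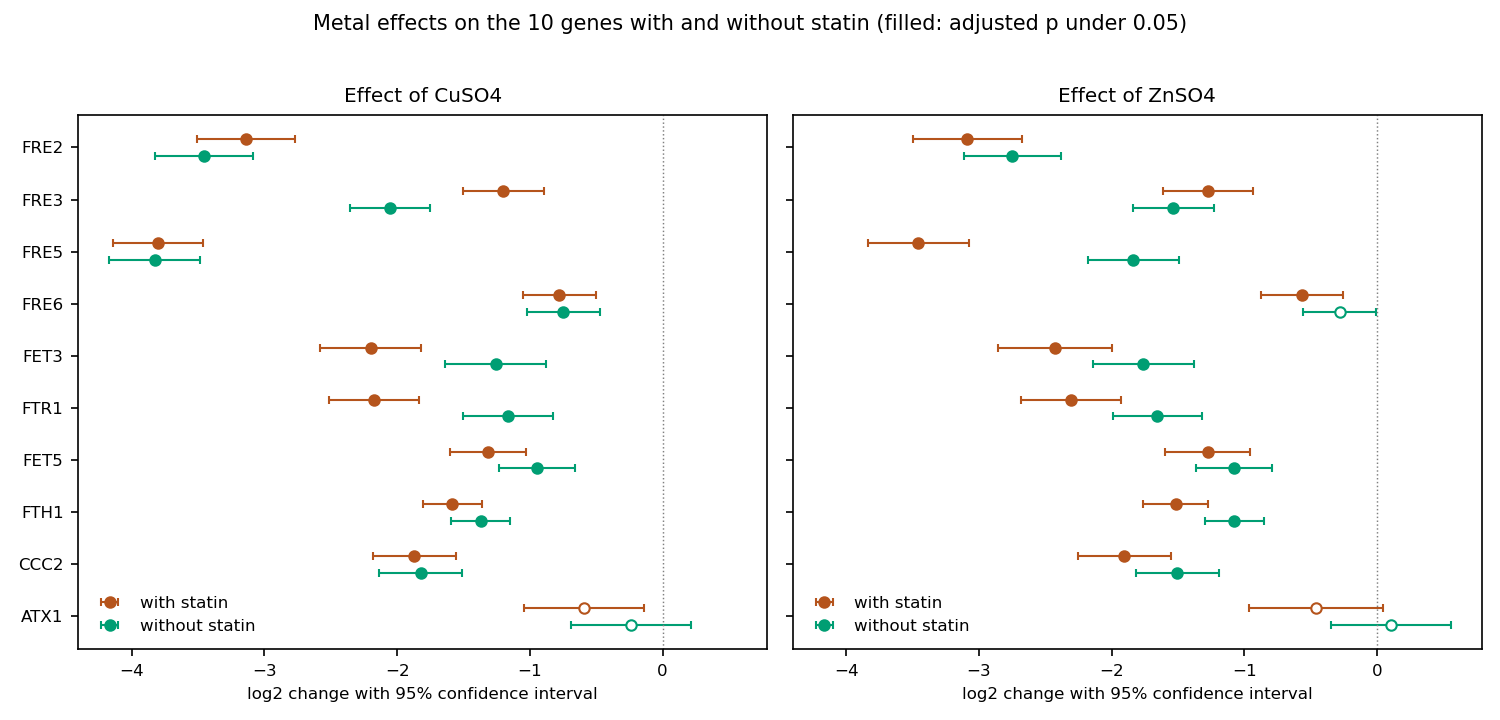
Log2 change of the 10 genes (rows) with CuSO4 (left) and ZnSO4 (right), in statin cultures and in cultures without statin; points are limma estimates, bars 95% confidence intervals, and filled points passed an adjusted p under 0.05. Intervals with and without statin are apart for FRE3, FET3 and FTR1 under CuSO4 and for FRE5 under ZnSO4.

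The effect of copper in statin cultures was read from statin with CuSO4 against statin. Of the 10 genes 9 fell, all except ATX1, against 7.31% of all genes called lower, with a median of -1.73 against 0.01. FRE5 fell 14.0-fold (-3.80 ± 0.16, adjusted p = 3.3e-10), FRE2 8.81-fold (-3.14 ± 0.17, adjusted p = 8.34e-09) and FRE3 2.30-fold (-1.20 ± 0.14, adjusted p = 2.13e-05). FRE6 fell by 0.78 ± 0.13. By the scanner program's log ratio FRE5 fell 36.0-fold.

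The uptake pair fell together: FET3 4.59-fold (-2.20 ± 0.18, adjusted p = 3.71e-07) and FTR1 4.51-fold (-2.17 ± 0.16, adjusted p = 1.08e-07). The changes of FET5, FTH1 and CCC2 were -1.31 ± 0.13, -1.58 ± 0.10 and -1.87 ± 0.15. ATX1 was at -0.59 ± 0.21 (adjusted p = 0.0717), with all 3 samples of statin with CuSO4 below all 3 of statin, and passed with the slide as a block (adjusted p = 0.00499). Without statin with CuSO4 replicate 2, the sample that stood apart, the changes were -2.15 for FET3, -2.15 for FTR1 and -1.08 for FRE3, and the same 9 genes were called.

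Statin with ZnSO4 against statin gave 9 of 10 genes lower, again all except ATX1, against 10.3% of all genes called lower and with a median of -1.71 against 0.01 over all genes. FRE5 fell 11.0-fold (-3.46 ± 0.18, n = 2 and 3, adjusted p = 6.83e-09; 24.5-fold by the scanner program's log ratio) and FRE2 8.50-fold (-3.09 ± 0.19, adjusted p = 5.89e-08). FET3 fell 5.38-fold (-2.43 ± 0.20, adjusted p = 6.69e-07) and FTR1 4.95-fold (-2.31 ± 0.18, adjusted p = 3.13e-07). On slide 2 the pair was at -1.83 and -1.93, and on slide 3 at -2.95 and -2.80. FRE3, FET5, FTH1 and CCC2 also fell (-1.28 ± 0.16, -1.28 ± 0.15, -1.52 ± 0.12 and -1.91 ± 0.16). FRE6 fell by 0.57 ± 0.14, a call that was lost without statin with ZnSO4 replicate 3 (adjusted p = 0.0909). ATX1 was at -0.46 ± 0.24 (adjusted p = 0.193).

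Statin with CuSO4 against statin with ZnSO4 gave 0 of 10 calls, against 0.482% of all genes called in either direction by limma; 0 of the 10 had an unadjusted p under 0.05, and 739 of all genes did. The 10 differences lay between -0.35 ± 0.18 (FRE5, 95% interval -0.73 to 0.03) and 0.23 ± 0.20 (FET3, -0.20 to 0.66). FRE5 was not well above background on some arrays of both groups, which limits what its difference can show; it was -0.55 by the scanner program's log ratio (adjusted p = 0.42).

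Statin with CuSO4 against CuSO4 and statin with ZnSO4 against ZnSO4 asked what the statin changed where a metal was present. With copper, 3 of 10 genes were called, against 44.3% of all genes called in either direction. FRE3 was higher with statin (0.60 ± 0.14, adjusted p = 0.00345), whereas FET3 (-0.89 ± 0.18, adjusted p = 0.00122) and FTR1 (-0.45 ± 0.16, adjusted p = 0.0314) were lower. The call of FRE3 was lost with scaling between arrays (0.39, adjusted p = 0.0556), and of the 3 calls that of FET3 alone held in every alternative. FRE5 was at -0.39 ± 0.16 (adjusted p = 0.0576). It was called lower with the slide as a block (adjusted p = 0.0286), by the scanner program's log ratio (-0.84, adjusted p = 0.0132), without background subtraction (-0.55, 0.0233), at a normexp offset of 0 (-0.75, 0.000721), with scaling between arrays (-0.92, 0.00071) and with 1 array per sample (-0.44, 0.0434). It was also called without statin with CuSO4 replicate 2 (-0.48, adjusted p = 0.0343) or CuSO4 replicate 3 (-0.53, 0.0214). FTR1 was not called without statin with CuSO4 replicate 2 (-0.43, adjusted p = 0.06), without statin with CuSO4 replicate 3 (adjusted p = 0.086) or without CuSO4 replicate 1 (0.119) or 2 (0.123), nor with only these groups in the fit (0.0641).

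With zinc, 3 of 10 genes were called, against 28.6% of all genes called in either direction. FRE5 was lower with statin, 4.11-fold (-2.04 ± 0.18, adjusted p = 1.41e-06), with -2.03 and -2.16 on slides 2 and 3, and 7.40-fold by the scanner program's log ratio. Its level in statin with ZnSO4 on slide 3 is only a bound. FET3 was lower (-0.61 ± 0.20, adjusted p = 0.0339) and FET5 higher (0.46 ± 0.15, adjusted p = 0.0338). FET3 differed by -0.26 on slide 2 and by -1.05 on slide 3. The call of FET3 was lost without statin with ZnSO4 replicate 3 (-0.26, adjusted p = 0.465), without ZnSO4 replicate 1, 2 or 3 (adjusted p = 0.058, 0.0718 and 0.0743), and with only these groups in the fit (0.0542). That of FET5 was lost without statin with ZnSO4 replicate 2 (adjusted p = 0.0745) or 3 (0.212) or ZnSO4 replicate 1 (0.11) or 2 (0.0837).

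Whether a metal changed a gene by a different amount with statin than without was tested as an interaction, the change with statin minus the change without. For CuSO4, 3 of 10 genes passed, against 18.4% of all genes called in either direction, and they moved in different directions. The falls of FET3 and FTR1 were larger with statin, by -0.94 ± 0.25 (adjusted p = 0.0162) and -1.01 ± 0.22 (adjusted p = 0.00492), and the fall of FRE3 was smaller, by 0.85 ± 0.20 (adjusted p = 0.0072). Within slides 1, 2 and 3 the interaction was -0.90, -1.07 and -0.85 for FET3, -0.94, -1.06 and -1.01 for FTR1 and 1.02, 0.63 and 0.90 for FRE3.

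These 3 interactions passed in each of the 21 alternatives. Without statin with CuSO4 replicate 2 they were -0.90 (adjusted p = 0.0253), -0.99 (0.00716) and 0.98 (0.00161), for FET3, FTR1 and FRE3 in that order. FRE5 had an interaction of 0.02 ± 0.23 (95% interval -0.46 to 0.50, adjusted p = 0.959), but -0.47 (adjusted p = 0.414) by the scanner program's log ratio and -0.32 (0.309) at a normexp offset of 0, so its value depends on how the dim signal is handled. CCC2 had an interaction of -0.05 ± 0.21 (-0.49 to 0.39, adjusted p = 0.909). FET5 and FTH1, the vacuolar pair, had interactions of -0.37 ± 0.19 (adjusted p = 0.203) and -0.21 ± 0.15 (adjusted p = 0.362).

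For ZnSO4, 1 of 10 genes passed, against 1.03% of all genes called in either direction. FRE5 fell more with statin, by -1.62 ± 0.24 (adjusted p = 0.00279; -1.63 on slide 2 and -1.93 on slide 3). It passed in all 19 alternatives that tested it, with values between -2.51 by the scanner program's log ratio and -1.33. Its samples of statin with ZnSO4 were well above background on 2 of 4 arrays. The other 2 were both arrays of replicate 3, so the slide 3 value rests on a bound and only replicate 2 was well above background. The strict filter left FRE5 out, and the alternatives share this limit. FET3, FTR1 and FTH1 had an unadjusted p under 0.05 and did not pass over all genes (-0.67 ± 0.27, -0.65 ± 0.24 and -0.44 ± 0.16, adjusted p = 0.372, 0.284 and 0.257). For FET3 and FTR1 the values within slides were -0.15 and -0.18 on slide 2 and -1.27 and -1.39 on slide 3.

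**Figure D3:**
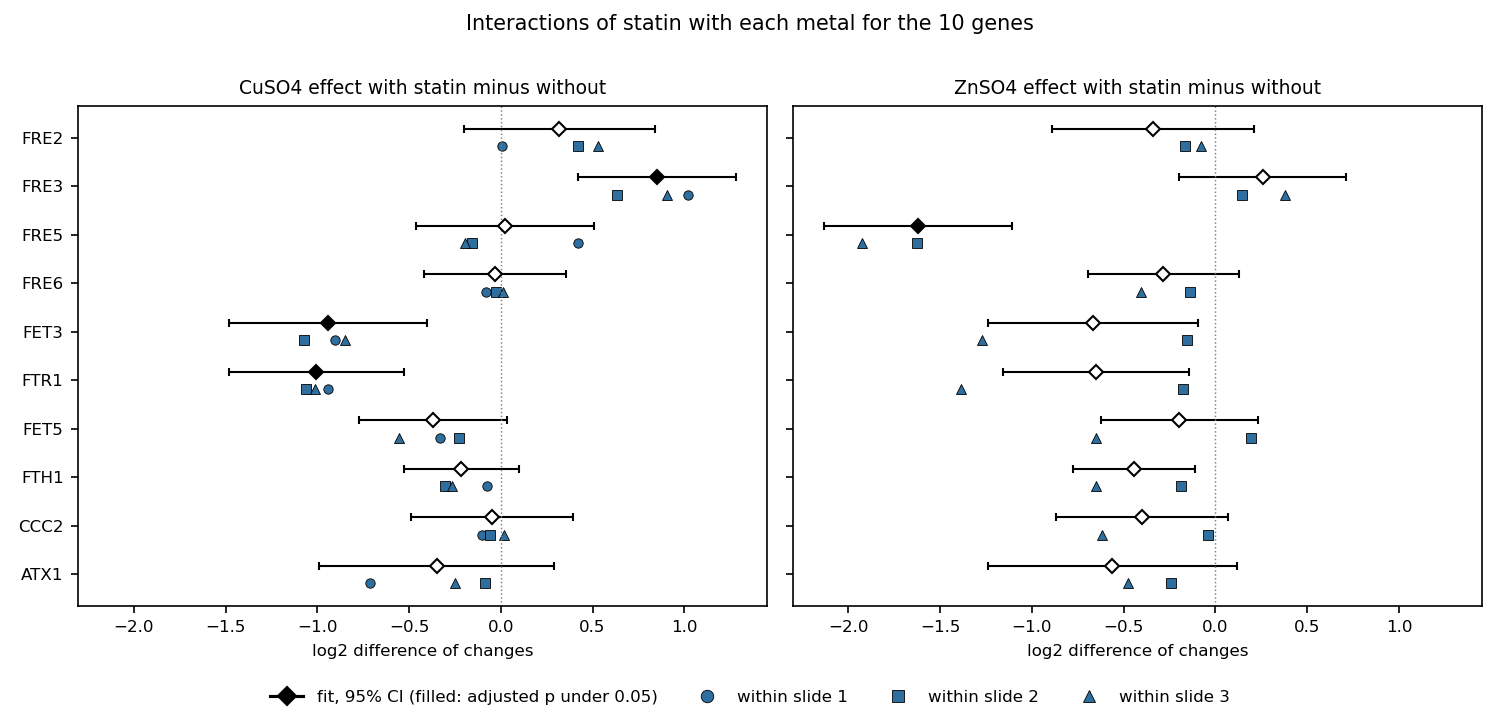
Interaction of statin with CuSO4 (left) and with ZnSO4 (right) for the 10 genes (rows), as the log2 change by the metal with statin minus that without; diamonds are limma estimates with 95% confidence intervals, filled at an adjusted p under 0.05, and blue symbols the values within each slide. The CuSO4 values of FET3, FTR1 and FRE3 have the same sign on all 3 slides, and the ZnSO4 values of FET3 and FTR1 are spread between slides 2 and 3.

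The partners FET3 and FTR1, and FET5 and FTH1, had like patterns over the samples, but such likeness was not particular to partners. Likeness was measured as the root mean square difference of log2 ratios over the 17 samples after centring each gene, which is smaller for more alike genes and depends on how much a gene varies. Among the 45 pairs of the 10 genes, FTH1 and CCC2 were closest (0.224), then FET3 and FTR1 (0.257) and FET5 and FTH1 (0.273), and FRE5 and ATX1 were farthest apart (1.61). FRE3 and FTH1 were at 0.28, and the copper delivery genes CCC2 and ATX1 at 0.769. All points share their arrays and their reference, and no test was made.

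Over all 5600 genes with a value in every sample, FTR1 was also the nearest gene to FET3, followed by CCC2 (0.396) and FET4 (0.451), the low-affinity iron and copper transporter gene. Nearest to FRE2 were ARN1 (0.412), a siderophore transporter gene, CTR1 (0.413), the high-affinity copper transporter gene, and FRE1 (0.468), another surface reductase gene. FET5 was nearest to YFR024C and LSB3 (0.237 each), 2 names at one locus, and ATX1 to GAT2 (0.175), in a range where ATX1 itself had an SD of 0.339. FRE2 had an SD of 1.51 over the samples.

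The rest of the reductase family did not move as one. FRE4 did not pass the signal filter. FRE1, a surface reductase of iron and copper, fell in statin with CuSO4 (-3.64 ± 0.23) and in statin with ZnSO4 (-2.46 ± 0.25) against statin, and in CuSO4 (-4.27 ± 0.23) and ZnSO4 (-3.11 ± 0.23) against untreated. FRE7, known as a reductase gene induced when copper is low, rose with statin (2.45 ± 0.30, adjusted p = 1.9e-05) and fell in statin with either metal against statin (-3.03 ± 0.30 and -2.32 ± 0.34). Without statin it had changes of -0.50 ± 0.30 with CuSO4 (adjusted p = 0.224) and -0.26 ± 0.30 with ZnSO4 (adjusted p = 0.634). FRE7 did not pass the strict filter, so it was dim in at least 1 group. Its rise with statin lay between 2.09 and 3.42 in the 14 alternatives that tested it. Whether low signal limits its falls without statin was not tested. FRE8 was lower in 3 of the 4 metal comparisons and AIM14 in 0 of 4.

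All 7 genes of siderophore uptake and the FIT mannoproteins fell in each of the 4 metal comparisons, against 7.31 to 16.6% of all genes, with medians between -4.37 (statin with CuSO4 against statin) and -2.33 (ZnSO4 against untreated). The FIT2 and FIT3 genes lie between FRE3 and FRE5 on the chromosome, with YOR381W-A next to FRE3. FIT3 fell in statin with CuSO4 (-4.37 ± 0.26) and in statin with ZnSO4 (-4.49 ± 0.29) against statin, and in CuSO4 (-3.89 ± 0.26) and ZnSO4 (-2.76 ± 0.26) against untreated.

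Of 8 genes of low-affinity and intracellular iron and manganese transport, 6 were lower in statin with CuSO4 against statin and 5 in each of the other metal comparisons. Over all genes, 7.31% were lower in statin with CuSO4 against statin, 10.3% in statin with ZnSO4 against statin, 16.6% with CuSO4 and 7.76% with ZnSO4. FET4 and the haem oxygenase gene HMX1 were among the genes of the list that fell in all 4. CCC1, the vacuolar iron importer, was the 1 gene of this list to rise, by 1.64 ± 0.13 and 1.51 ± 0.15 in statin with CuSO4 and with ZnSO4 against statin, and by 1.37 ± 0.13 and 1.102 ± 0.13 in CuSO4 and ZnSO4 against untreated. Of all genes 9.44% and 11.7% rose in statin with CuSO4 and with ZnSO4 against statin, and 18.0% and 8.79% in CuSO4 and ZnSO4 against untreated.

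Of 9 iron regulator genes, 5 fell with CuSO4 against untreated and 1 with ZnSO4, and with statin present 2 fell and 1 rose with CuSO4 and 2 fell and 2 rose with ZnSO4. The shares of all genes that fell or rose were those just given, so 1 of 9 with ZnSO4 was near that of all genes. AFT1, which encodes the activator of this regulon, fell in statin with CuSO4 (-0.59 ± 0.08) and with ZnSO4 (-0.38 ± 0.09) against statin and in CuSO4 against untreated (-0.36 ± 0.08), and had a change of -0.13 ± 0.08 in ZnSO4 (adjusted p = 0.34). TIS11, an mRNA-decay factor gene induced when iron is low, fell in all 4. The glutaredoxin genes GRX3 and GRX4, whose products restrain Aft1 when iron is ample, fell with statin against untreated (-1.01 ± 0.10 and -1.43 ± 0.18). In that comparison 2 of the 9 regulator genes fell and 1 rose, and 1056 of all 5606 genes fell and 1009 rose. Both also fell with CuSO4 against untreated (-0.29 ± 0.10, adjusted p = 0.0392, and -1.03 ± 0.18). With CuSO4 against statin, GRX3 rose (0.55 ± 0.10) and GRX4 had a change of 0.53 ± 0.18 (adjusted p = 0.0623).

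Of 11 genes of copper transport, chaperones and cuproenzymes, 4 fell and 1 rose with CuSO4 against untreated, 3 fell with ZnSO4, 3 fell in statin with CuSO4, and 3 fell and 1 rose in statin with ZnSO4. With CuSO4, 16.6% of all genes fell and 18.0% rose, and with ZnSO4 7.76% fell. In statin cultures 7.31% fell with CuSO4, and 10.3% fell and 11.7% rose with ZnSO4. The counts of this list were not tested against these shares. CTR1, CTR2 and CTR3, the copper transporter genes, fell in all 4 comparisons, CTR1 most among them (-3.81 ± 0.25, -2.76 ± 0.28, -3.91 ± 0.25 and -2.75 ± 0.25, in the order statin with CuSO4, statin with ZnSO4, CuSO4, ZnSO4). The calls of CTR3 did not all hold in the alternatives that tested it. In the same order, it was called in 14 of 14, 12 of 13, 11 of 14 and 8 of 14. COX17, the gene of a copper chaperone of mitochondria, rose with CuSO4 (1.05 ± 0.18, adjusted p = 0.000394). CCS1, the chaperone of superoxide dismutase, was called in 0 of the 4. These lists were drawn up with earlier results of the same arrays known, so their counts are not independent evidence.

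**Figure D4:**
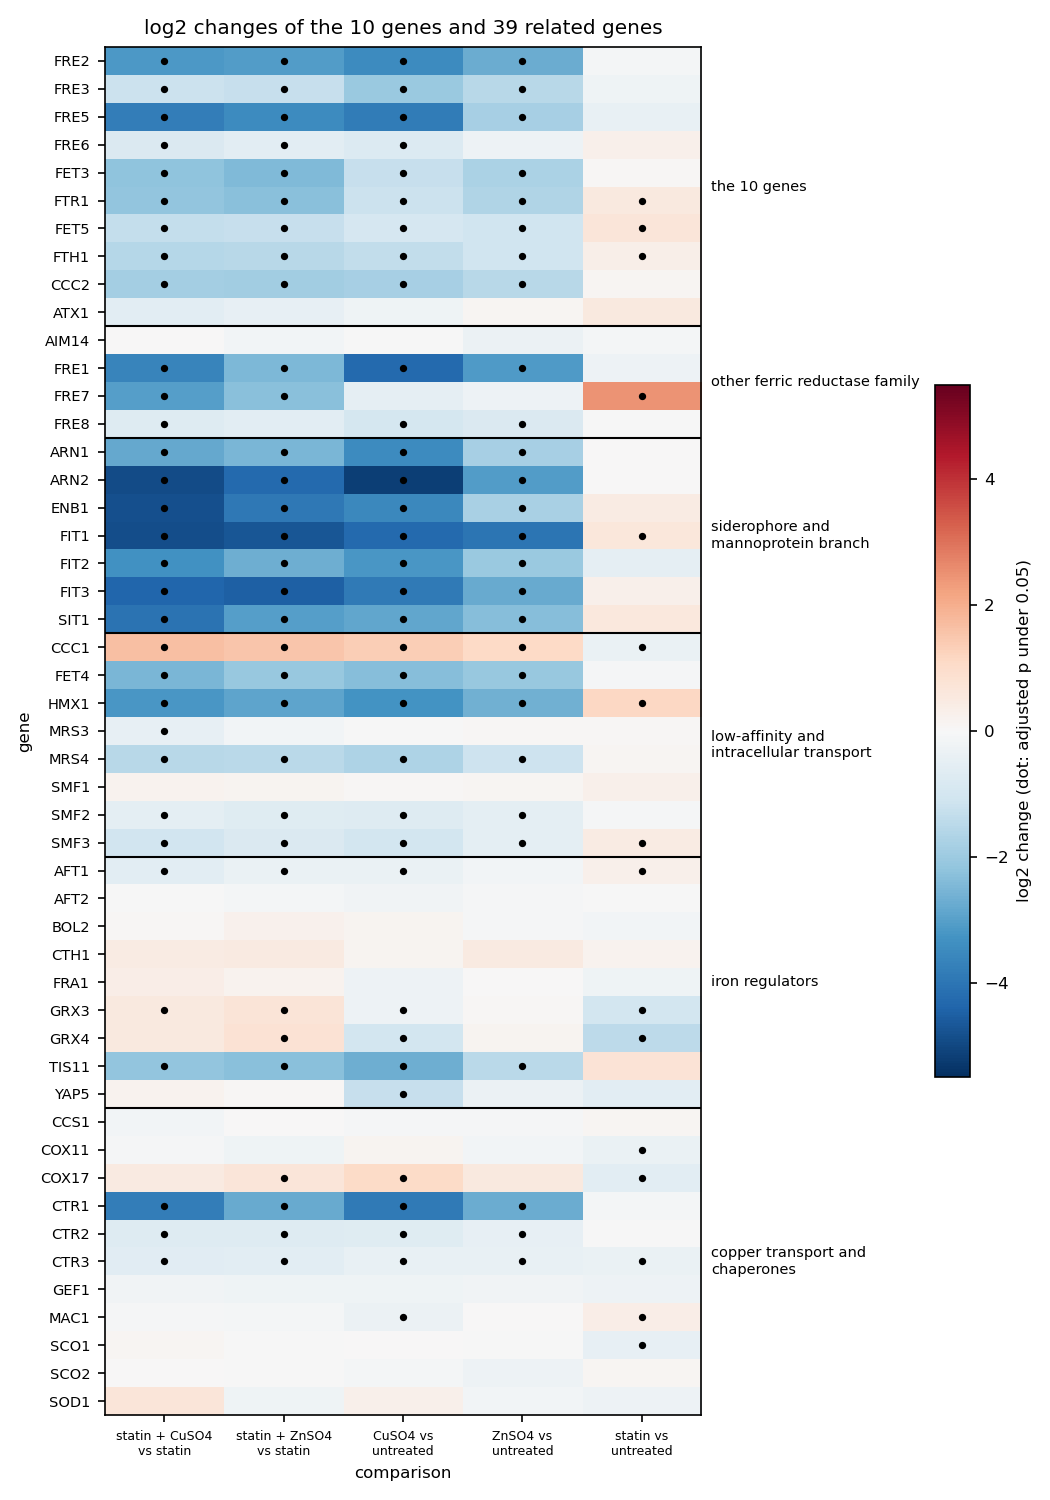
Log2 changes (colour, blue lower and red higher) of the 10 genes and 39 related genes (rows, by list) in the 4 metal comparisons and in statin against untreated (columns); dots mark an adjusted p under 0.05. The 9 genes other than ATX1 are blue across the metal columns, with FRE6 not past the test under ZnSO4, and the statin column is near white for most of them.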

How the data were processed

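Scanner files of 23 two-colour Agilent arrays were used. Per the submitters' processing notes, the authors extracted spot values in version 10.5.1.1 of Agilent Feature Extraction. The deposited files hold median intensities and median background intensities per spot and channel and a log10 ratio of red over green, per the file headers; the authors' deposited value table is this log10 ratio with its sign turned (differences of at most 5e-06; column medians 0 to 0.00326). In the fits, background was corrected with normexp (offset 50), control spots had weight 0, outlier spots were left out and ratios were normalized by loess within arrays (median intensities, where the design named mean ones). The log2 ratio of sample over reference was averaged over the 2 spots of a probe and over the duplicate arrays of 6 samples (r = 0.944 to 0.993). Median sample intensity per array was 913.5 to 2999, and the number of samples limits the precision. Genes entered the test where, in at least 1 group, the sample channel was well above background in both spots of all arrays (5606 genes; 650 were left out). No spot was saturated.

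One limma fit (version 3.58.1; R 4.3.3) held all 6 groups, with two-sided tests and Benjamini-Hochberg adjustment over all genes tested. The fit was also run on simulated data whose noise was independent between samples. That run cannot show how a deviation shared by a slide affects the calls. Named genes are the 10 genes, genes of 5 related lists, and for FET3, FRE2, FET5 and ATX1 the 3 nearest genes. The members and lists were chosen with earlier results of these data known. Gene names were updated through RefSeq assembly R64 (names of 5756 of 6256 genes matched). No sequence is printed, and a planned promoter motif search was not run, because no sequence was used here; coordinates are not given, since the files use another build (sacCer1). Alternatives were other background corrections and scaling, no filter and a strict filter (4698 genes), single arrays, the slide as a block, fewer groups, and leaving out each sample.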

Additional observations from a re-analysis of the deposited data

Results flagged for a closer look

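Each value here is an interaction, the log2 change by a metal with statin minus that without, and was singled out because the difference itself passed limma's test over all genes. Among the 10 genes, CuSO4 gave -0.943 ± 0.25 for FET3 (adjusted p = 0.0162), -1.01 ± 0.22 for FTR1 (0.00492) and 0.852 ± 0.20 for FRE3 (0.0072). ZnSO4 gave -1.62 ± 0.24 for FRE5 (0.00279). Each had the same sign on every slide that held its 4 groups. For FRE5 these were slides 2 and 3, and its slide 3 value rests on a bound.

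Among the related genes, CuSO4 gave -2.53 ± 0.43 for the reductase gene FRE7, -1.26 ± 0.27 and -1.22 ± 0.33 for the siderophore transporter genes ENB1 and SIT1, and 0.837 ± 0.14, 1.55 ± 0.26 and 1.45 ± 0.39 for the iron regulator genes GRX3, GRX4 and YAP5. FRE7 did not pass the strict filter on dim probes, and its CuSO4 value lay between -3.61 and -2.17 in the alternatives that tested it. ZnSO4 gave -2.12 ± 0.28 for ENB1, -1.73 ± 0.39 for FIT3 (adjusted p = 0.0476) and -2.06 ± 0.46 for FRE7 (adjusted p = 0.0451). The last 2 lost the call when any of several samples was left out and with scaling between arrays (FIT3 -1.40, adjusted p = 0.198; FRE7 -2.11, adjusted p = 0.0545), and FRE7 also with the slide as a block (adjusted p = 0.058). The CuSO4 value of YAP5 lost its call with scaling between arrays (1.34, adjusted p = 0.0511). For CuSO4, 1 of 4 tested reductase family genes, 2 of 7 siderophore and mannoprotein genes and 3 of 9 iron regulator genes were called. In the other lists 0 of 8 and 0 of 11 were called, against 18.4% of all genes. For ZnSO4 the counts were 1 of 4, 2 of 7, 0 of 9, 0 of 8 and 0 of 11, against 1.03% of all genes. These counts were not tested against those shares. Statin and the density of the cultures cannot be told apart in any of these interactions.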

How the results depend on the processing

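The number of the 10 genes called stayed within 1.5 times of the value given for each metal alone against untreated, for each metal with statin against statin, and for the CuSO4 interaction, under every alternative run. Statin against untreated gave 5 calls with the replicate block, against 3. CuSO4 against ZnSO4 gave 3 calls with scaling between arrays, 3 with the strict filter (FRE2 and FRE5 not tested) and 2 with only these groups in the fit, against 5. The ZnSO4 interaction gave 0 with the strict filter, because FRE5 was not tested. Leaving out 1 sample at a time gave 1 to 6 calls for CuSO4 against ZnSO4, 1 to 2 for statin with ZnSO4 against ZnSO4, 2 to 4 for statin with CuSO4 against CuSO4 and for statin against untreated. Of 110 values of the 10 genes, scaling between arrays ended 5 calls and made 4, and fitting only the groups compared ended 6 and made 3; none of the 10 genes changed direction where called. Among the related genes FIT1 in statin with CuSO4 against CuSO4 turned to -0.654 with scaling between arrays; the cause was not tested.

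Replicate number and slide, which here means scan date, coincide, so the replicate block is the slide block. Deviations from the group means correlated at r over 0.1 in 33 of 40 pairs of samples with the same number (-0.0902 to 0.688, median 0.311), against 7 of 80 pairs with different numbers (median -0.149), so samples on a slide tended to deviate together. Deviations cancel within a group, so the 2 medians are tied to each other. Pairing required r over 0.1 in every pair, so the block stayed an alternative. The main fit therefore keeps the shared deviation of a slide in its SE. The block made 5 further calls among the 110 values and ended none. These were ATX1 and FRE5 in statin against untreated, and ATX1 in statin with CuSO4 against statin. The others were FRE5 in statin with CuSO4 against CuSO4 and FTH1 in CuSO4 against ZnSO4. Within slides, 146 of 146 called values and 261 of 290 values in all kept their sign. Signal limits FRE5 and, on 1 array of statin with ZnSO4, FRE2: by the scanner program's log ratio, FRE5 folds were over 1.5 times larger for CuSO4 against untreated, for each metal with statin against statin, for statin with ZnSO4 against ZnSO4 and for CuSO4 against ZnSO4.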
